A study of Homo sapiens with 4 samples.

Results

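Of the 4 arrays of the series, 2 are described here: MCF12A cells after 1 week in acetaldehyde at 2.5 mM, and control 2, the unexposed culture whose title assigns it to the acetaldehyde experiment. The other 2 arrays, 25 mM ethanol for 1 week and its unexposed control 1, are given beside them. MCF12A is an immortal human line of breast epithelium that does not form tumours. All 4 cultures were monolayers whose medium held cholera toxin, insulin, hydrocortisone, epidermal growth factor and horse serum, and total RNA was read on Affymetrix Human Gene 1.0 ST arrays, which measure a transcript with many short probes. Every difference below is log2 of the deposited intensity with acetaldehyde minus log2 of that on control 2, so a value below 0 means less signal after acetaldehyde. There was 1 array a side. No difference was therefore tested, and the number of arrays limits the precision of every value.

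Acetaldehyde is the first product of ethanol oxidation, made by alcohol dehydrogenases, catalase and CYP2E1 and removed mainly by aldehyde dehydrogenases. It is reactive and forms adducts and crosslinks with protein and DNA. Cultured breast epithelial lines of this kind express basal keratins and can also express genes of squamous differentiation, the programme by which stratified epithelia replace basal keratins, build a crosslinked cornified envelope and seal the layers with lipids.

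The array medians over 33297 probe sets were 113.8 on control 2 and 113.0 with acetaldehyde, against 92.2 on control 1 and 90.2 with ethanol. The sorted values of the acetaldehyde pair differed by a mean of 0.0268 log2, those of the ethanol pair by 0.0398, and those of arrays from different pairs by 0.270 to 0.285. Levels on all 4 arrays are given side by side. Any statement that crosses the pairs, such as control 2 against control 1 or a value below both controls, also includes this difference in scale. The basal or myoepithelial markers KRT5, KRT14, CDH3 and TRIM29 were bright on both arrays. They read 12169, 1587, 4186 and 2844 on control 2 and 10366, 822, 4082 and 1870 with acetaldehyde. Of 7 luminal markers 5 were kept as expressed. KRT8 read 2580 on control 2 and 3001 with acetaldehyde (0.22), and MUC1 1226 and 771 (-0.67). KRT18 (0.12) and EPCAM (0.35) were also higher, and KRT19 was lower (-0.54). ESR1 and PGR were below the filter intensity of 155. Of 11 markers of immune, endothelial, stromal, fat and blood cells, 9 were below that level on both arrays. The stromal markers COL1A1 (308 on control 2 and 279 with acetaldehyde) and DCN (177 and 187) were above it. The summed intensity of all 11 was 1048 on control 2 and 1021 with acetaldehyde. In RNA from a whole culture, fewer cells of a type and less RNA per cell cannot be told apart.

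Most of the transcriptome differed little between the acetaldehyde array and its control. Over 10373 kept genes the differences had a median of 0.00, quartiles of -0.12 and 0.12, and an SD of 0.21, with 5258 genes above 0 and 5112 below. The genes at least 2-fold lower numbered 22 (0.212% of those kept) and those at least 2-fold higher 3 (0.0289%). At 1.5-fold, 101 genes were lower (0.974%) and 77 higher (0.742%). Ethanol against control 1 gave 219 genes at least 2-fold lower (2.11%) and 121 higher (1.17%), and control 2 against control 1 gave 503 lower (4.85%) and 441 higher (4.25%). The unexposed cultures thus stood further apart than the acetaldehyde array stood from its own control, a comparison that crosses the pairs and so includes their difference in scale. Of the 22 genes, 18 were below both controls and 4 lay between them, and of the 3 higher genes 2 were above both and 1 lay between them. Over all kept genes, 24.9% were below both controls and 30.1% above both. Within the acetaldehyde pair, 300 genes read by exactly 2 probe sets gave a yardstick for measurement error on one pair of arrays: the gap between the differences of the 2 probe sets had a median of 0.0756 and a 95th percentile of 0.471, which corresponds to an SD of 0.15 for a single probe set. That gauge does not include variation between cultures.

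**Figure D1:**
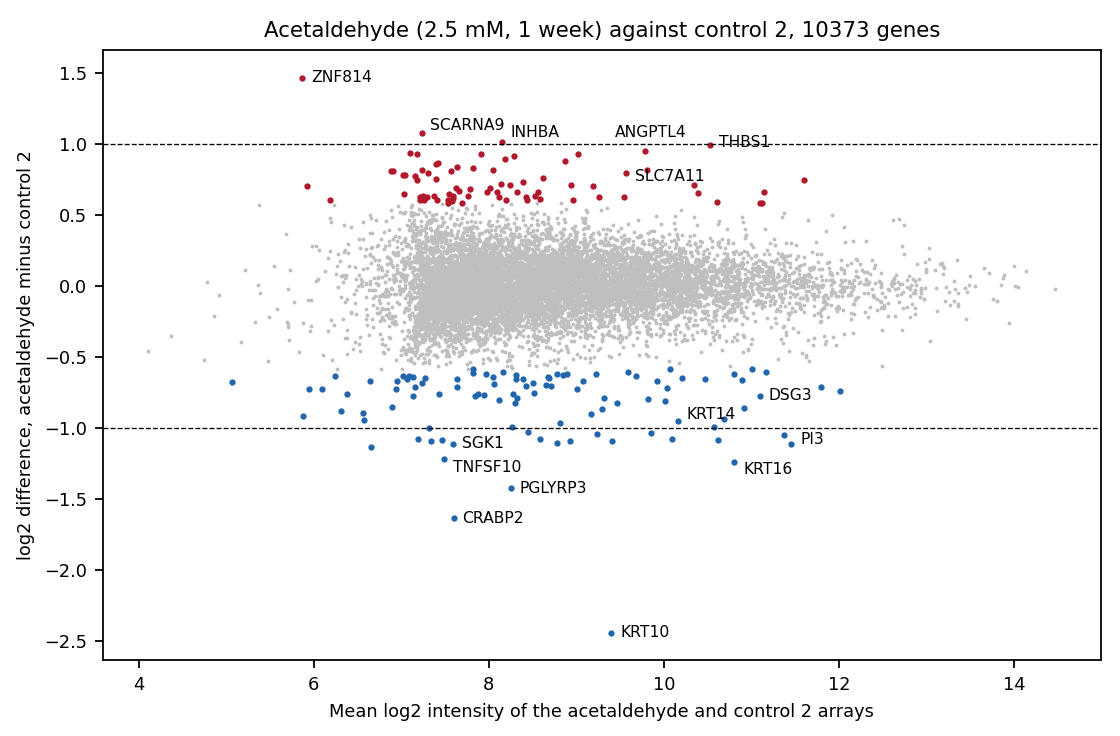
Difference between the acetaldehyde and control 2 arrays (vertical axis, log2) against their mean log2 intensity (horizontal axis), 1 point for each of 10373 kept genes. Blue and red points are at least 1.5-fold lower (101) and higher (77), and dashed lines mark 2-fold; 22 genes lie on or below the lower line and 3 on or above the upper one, with KRT10 at -2.44 far below the rest.

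The gene furthest from its control was KRT10, the type I keratin that replaces KRT14 as basal cells leave the basal layer. Its intensity was 1298 on control 1, 70.5 with ethanol, 1571 on control 2 and 290.0 with acetaldehyde. Both controls were alike and both exposed arrays far below them, a difference of -2.44 for acetaldehyde (5.42-fold lower). KRT16, a keratin of stressed and hyperproliferative epithelium, read 4267, 750, 2743 and 1164 on the same arrays in the same order. It too was lower on both exposed arrays than on either control, with a difference of -1.24. KRT1, the type II partner of KRT10, read 86.9, 49.2, 213 and 101. It was 2.11-fold lower than control 2 after acetaldehyde but dim throughout, and its acetaldehyde value lay between the controls, whereas KRT10 and KRT16 lay below both.

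Of 9 kept suprabasal and stress keratins, 8 were below control 2, 3 by at least 1.5-fold and 0 above it by that much, with a median of -0.40 against 0.00 over all kept genes. Without the filter on dim genes the list's median was -0.066. The basal keratin KRT14 read 5075 on control 1, 3212 with ethanol, 1587 on control 2 and 822 with acetaldehyde. It was thus also lower (-0.95), while its partner KRT5 was 1.17-fold lower (-0.23). Of the simple-epithelium keratins, KRT8 differed by 0.22 and KRT18 by 0.12, both between the controls, while the dimmer KRT19 was lower, at 184 on control 2 and 127 with acetaldehyde (-0.54). By position, the type I keratin cluster had 12 of 13 kept genes below control 2 and a median of -0.35, and the type II cluster 5 of 9 with a median of -0.02. These gene neighbourhoods were chosen after values had been seen.

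**Figure D2:**
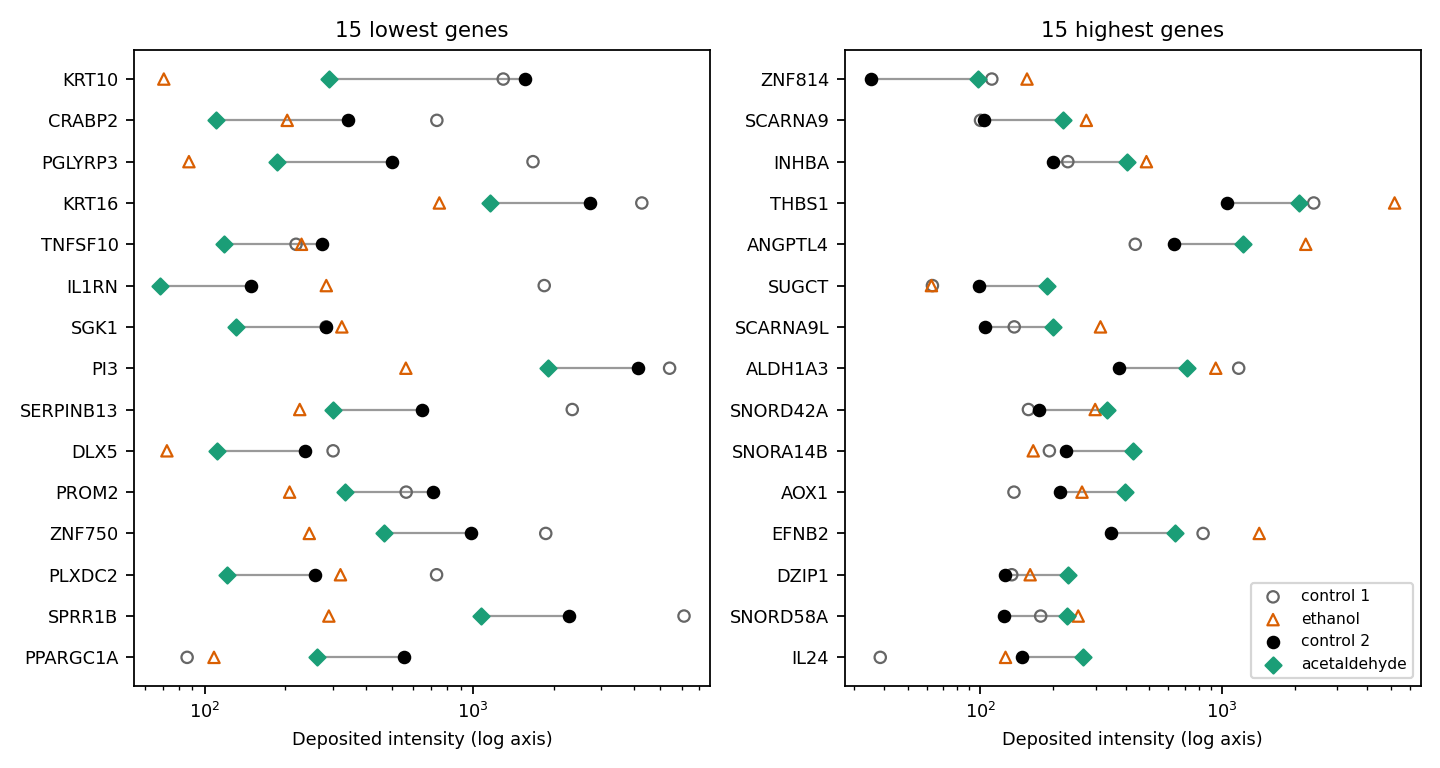
Deposited intensity (log axis) on each of the 4 arrays for the 15 genes with the lowest (left) and the 15 with the highest (right) difference between acetaldehyde (green diamonds) and control 2 (filled circles), joined by a line; open circles are control 1 and orange triangles ethanol. KRT10, KRT16 and PI3 are below both controls on both exposed arrays, whereas TNFSF10 and SGK1 are low only on the acetaldehyde array.

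Genes of the cornified envelope, the protein shell that transglutaminases crosslink under the membrane of a differentiated squamous cell, were lower as a group but by less than KRT10. Of 28 kept members, 23 were below control 2, 6 by at least 1.5-fold and 1 above it by that much, with a median of -0.29. SPRR1B, a small proline-rich crosslinking precursor, read 6129 on control 1, 291 with ethanol, 2282 on control 2 and 1077 with acetaldehyde (-1.08). Its neighbour SPRR1A read 7795, 225, 1581 and 752 (-1.07). TGM1, the transglutaminase that builds the envelope, read 2416, 311, 434 and 218 (-0.99). For all 3 the acetaldehyde value was below both controls, control 1 was far above control 2, and the ethanol value was the lowest or second lowest. SPRR2A, of the same family as SPRR1B, was the exception past 1.5-fold: it read 496, 60.0, 47.5 and 77.3, higher with acetaldehyde than on control 2 (0.70) but dim on both. Across the epidermal differentiation complex on chromosome 1, from S100A10 to S100A1, 26 of 34 kept genes were below control 2, 7 by at least 1.5-fold and 1 above by that much, with a median of -0.16.

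Promoter sequences are shown for KRT10, the largest difference, and SPRR1B, among the brightest envelope genes that were 2-fold lower, since TATA boxes and AP-1 sites are known features of promoters of squamous differentiation genes. Each is the 250 bases before the RefSeq start (GRCh38.p14), 5′ to 3′ along the gene, at chr17:40822615-40822864 on the minus strand for KRT10 and chr1:153030953-153031202 on the plus strand for SPRR1B. Capitals mark matches to TATAAA, to the AP-1 motif TGANTCA or to TGATGNAA, a composite of C/EBP and ATF elements, on either strand.
KRT10: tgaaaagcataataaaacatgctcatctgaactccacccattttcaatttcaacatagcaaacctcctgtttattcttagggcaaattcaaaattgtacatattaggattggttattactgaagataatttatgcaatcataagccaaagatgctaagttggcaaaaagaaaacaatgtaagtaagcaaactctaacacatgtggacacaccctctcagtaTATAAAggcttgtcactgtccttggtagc
SPRR1B: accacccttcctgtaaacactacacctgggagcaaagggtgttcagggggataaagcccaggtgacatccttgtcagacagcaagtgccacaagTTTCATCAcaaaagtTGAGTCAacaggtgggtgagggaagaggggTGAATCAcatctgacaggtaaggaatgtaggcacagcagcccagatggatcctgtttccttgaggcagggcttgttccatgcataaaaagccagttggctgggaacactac
The KRT10 window holds TATAAA beginning 29 bases before the start. The SPRR1B window holds TGANTCA beginning 141 and 111 bases before the start and the minus-strand form of TGATGNAA 156 bases before it. The window of CRABP2, the second lowest gene, had no match to any of the 3.

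Windows of 300 bases, from 250 before to 50 after the start, were found in the RefSeq table for 8393 kept genes, 74 of the 101 genes lower by 1.5-fold or more and 51 of the 77 higher. TATAAA was in 18 of the 74 (24.3%) and in 12 of the 51 (23.5%), against 8.57% of kept genes and 13.99% of all 27305 genes in the table. TGANTCA was in 15 of the 74 (20.3%) and 7 of the 51 (13.7%), against 6.80% of kept genes and 9.37% of all. TGATGNAA was in 7 of the 74 (9.46%) and 2 of the 51 (3.92%), against 2.49% and 4.46%. The motifs were searched on both strands, a palindromic match was counted once, and these shares are descriptions of sequence, not of binding.

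The remaining differentiation and barrier lists pointed the same way, except the clade B serpins. All 9 kept kallikreins and SPINK inhibitors, the serine proteases that shed surface cells and their brakes, were below control 2 and below both controls, 2 by at least 1.5-fold, with a median of -0.37 (-0.17 without the filter on dim genes). KLK10 led them at 4864 on control 1, 1025 with ethanol, 860 on control 2 and 419 with acetaldehyde (-1.04). KLK6 (-0.63) and KLK8 (-0.52) followed, but KLK6 read 94.0 on control 2 and 60.7 with acetaldehyde, both below the filter intensity. KLK6 was kept because control 1 read 1379 and ethanol 256. Of 6 kept clade B serpins, intracellular protease inhibitors, only 2 were below control 2 and the median was 0.11, although SERPINB13 was 2.15-fold lower (2348, 226, 645 and 301 on the 4 arrays in the order control 1, ethanol, control 2, acetaldehyde).

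Of 22 kept desmosome and tight junction genes, 18 were below control 2 and 3 by at least 1.5-fold, with a median of -0.18. DSG3, the desmosomal cadherin of basal layers, read 6733, 3008, 2863 and 1677 (-0.77), and CLDN1, a claudin that seals epithelia, read 6153, 2917, 5310 and 3183 (-0.74). PKP1, which anchors desmosomal cadherins, was 1.54-fold lower. All 3 are bright genes whose acetaldehyde value was below both controls, and for CLDN1 the 2 controls were near each other.

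Barrier lipid genes, which make ceramides and the lipid envelope, had a median of -0.34, with 13 of 20 below control 2 and 3 by at least 1.5-fold. CERS3, the ceramide synthase for very long chains, was 1.92-fold lower but read 132 on control 2 and 68.9 with acetaldehyde, both below the filter intensity; it was kept because control 1 read 1063. ALOX12B, a lipoxygenase of the same pathway, was 1.55-fold lower. SGPP2, a sphingosine-phosphate phosphatase, read 391, 310, 1366 and 782, so its acetaldehyde value, lower than control 2 by 1.75-fold, was above control 1.

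Of 21 kept transcription factors of epithelial differentiation, 20 were below control 2, 5 by at least 1.5-fold, with a median of -0.27, and 17 were below both controls. ZNF750, a factor needed for late epidermal differentiation, read 1870 on control 1, 246 with ethanol, 988 on control 2 and 465 with acetaldehyde (-1.09). DLX5, a homeobox factor, read 301, 72.4, 237 and 111 (-1.09), and GRHL3, a grainyhead factor of barrier formation, read 974, 311, 420 and 237 (-0.82). In these 3 genes both exposed arrays were below both controls. Together, 8 lists hold 129 kept genes: keratins, envelope, kallikreins, serpins, junctions, barrier lipids, these factors, and the antimicrobial and innate sensing genes described below. Of the 129, 104 were below control 2, 30 by at least 1.5-fold and 13 by at least 2-fold. Another 2 were higher by at least 1.5-fold, and the median was -0.28. Over all 10373 kept genes, 5112 were below control 2, 0.974% by at least 1.5-fold and 0.212% by at least 2-fold, and 0.742% were 1.5-fold higher. The lists were chosen with earlier results of these data known. Some members, such as KLK6 and CERS3, were below the filter intensity on both arrays of the pair. The same 129 genes had a median of -1.06 for ethanol against control 1 and -0.81 for control 2 against control 1, so these genes also read lower on control 2 than on control 1.

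Retinoid genes differed in both directions. CRABP2, which carries retinoic acid to its nuclear receptor, read 734 on control 1, 203 with ethanol, 341 on control 2 and 110.0 with acetaldehyde. Its acetaldehyde value was the lowest of the 4, a difference of -1.63. ALDH1A3, which makes retinoic acid from retinal, read 1174, 943, 376 and 716. It was 1.91-fold higher with acetaldehyde than on control 2 and between the controls, and a second, dim ALDH1A3 probe set read 111 on control 2 and 103 with acetaldehyde (-0.11). TGM2, a transglutaminase known as a retinoic acid target, read 256, 1451, 1275 and 1919 (0.59). Over the 14 kept genes 9 were below control 2 and the median was -0.17.

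**Figure D3:**
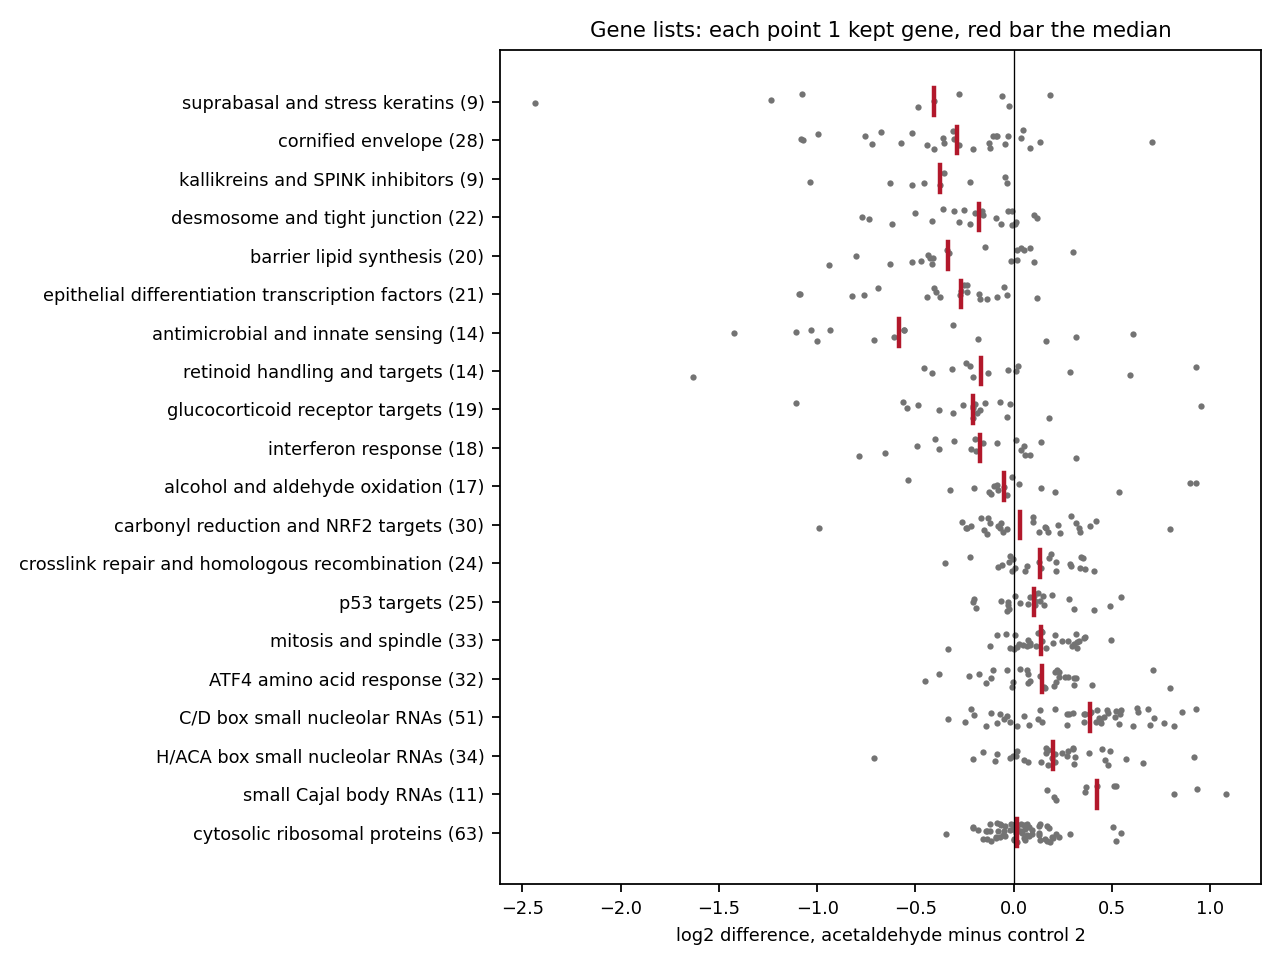
Difference between acetaldehyde and control 2 (log2) for the kept genes of selected lists, 1 grey point a gene, with a red bar at each list's median and the number of kept genes in brackets. Of the 8 differentiation and barrier lists, the clade B serpins (median 0.11) are not drawn. The bars of the keratin (-0.40), barrier lipid (-0.34) and antimicrobial (-0.58) lists lie left of 0, those of the C/D box small nucleolar RNAs (0.39) and small Cajal body RNAs (0.42) right of it, and that of the ribosomal proteins at 0.02.

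The antimicrobial and innate sensing list had the lowest median among the kept genes of the lists, -0.58 over 14 genes (-0.27 without the filter on dim genes, when the barrier lipid list was lower at -0.33), with 11 below control 2, 7 by at least 1.5-fold, 4 by at least 2-fold and 1 higher by at least 1.5-fold. PGLYRP3, a secreted peptidoglycan-binding protein encoded within the epidermal differentiation complex, read 1676, 87.4, 500.1 and 187 on control 1, ethanol, control 2 and acetaldehyde (-1.42). PI3, the elastase inhibitor elafin, read 5416, 563, 4120 and 1911 (-1.11). S100A7, psoriasin, read 371, 212, 1326 and 649 (-1.03). PGLYRP3 and PI3 were below both controls, while S100A7 was brighter on control 2 than on control 1 and ended between them. RNASE7, an antimicrobial ribonuclease of skin, was the member higher by at least 1.5-fold, at 282, 176, 150.0 and 228 (0.60). On control 2 this list's median was 0.46 above control 1, the opposite of the envelope genes (-1.77).

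In the interleukin-1 family the receptor antagonist and an agonist parted. IL1RN, the antagonist, read 1846, 284, 150 and 68.4 and was 2.19-fold lower with acetaldehyde, although control 2 was already far below control 1. Its values on control 2 and with acetaldehyde were both below the filter intensity of 155. With 16 added before log2 its 2-fold call was lost. IL1B, the secreted agonist, read 2168, 790, 599 and 926 and was 1.55-fold higher, between the controls. The 9 kept genes of the family had a median of 0.04. The chemokine and NF-kB list had a median of 0.03 over 15 genes, with CXCL14 lower (-0.65) but between the controls, and IL24 (0.84) and CXCL8 (0.60) higher, both from control 2 intensities (148 and 155) near the filter level. Interferon response genes had a median of -0.17, and the membrane restriction factors IFITM3 (1256, 1581, 838 and 486; -0.79) and IFITM2 (-0.66) were the members of its 18 kept genes lower by at least 1.5-fold.

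A few of the 22 lowest genes did not differ in that direction with ethanol. TNFSF10, the death ligand TRAIL, read 219 on control 1, 230 with ethanol, 275 on control 2 and 118 with acetaldehyde. The other 3 arrays were close together and the acetaldehyde array alone was low, a difference of -1.22 against 0.07 for ethanol. SGK1, a kinase induced by glucocorticoids, showed the same layout at 284, 325, 283 and 131, with -1.11 against 0.19. PPARGC1A, a coactivator of mitochondrial and lipid genes, read 86.1, 108, 556 and 264, so its 2.11-fold lower value was still above control 1 and ethanol. No other kept member of the 13-gene TRAIL list was 1.5-fold apart. Of 19 kept glucocorticoid receptor targets, 17 were below control 2 and the median was -0.20, but the list's median on control 2 was 0.71 above control 1 and only 4 genes were below both controls.

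The higher genes were fewer and smaller in their differences. ZNF814, a zinc finger gene, had the largest at 1.47, from 35.2 on control 2 to 97.2 with acetaldehyde, but control 1 read 111 and ethanol 156, and both acetaldehyde-pair values were below the filter intensity. INHBA, the activin A subunit, read 230.0, 487, 200 and 405 and THBS1, the matrix protein thrombospondin 1, read 2401, 5193, 1045 and 2079. INHBA was 2.03-fold higher and above both controls, while THBS1 was 1.99-fold higher yet below control 1. ANGPTL4, a secreted lipoprotein lipase inhibitor and target of PPAR, hypoxia and glucocorticoid signals, read 438, 2225, 633 and 1228 (0.95) and was above both controls.

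BAMBI, a pseudoreceptor that dampens TGF-beta signals, was 1.76-fold higher (131, 162, 114 and 201). The activin and TGF-beta list as a whole had a median of 0.09, with 19 of 27 kept genes above control 2 and 2 by at least 1.5-fold. Matrix and integrin genes had a median of 0.08, with THBS1 and LAMB3, a laminin 332 chain (1098, 2795, 1823 and 2738; 0.59), the members 1.5-fold higher. EFNB2, an ephrin ligand, read 836, 1428, 346 and 637 (0.88), between the controls. The epidermal growth factor family ligands EPGN (358, 361, 261 and 435; 0.74) and EREG (2013, 1570, 1782 and 2675; 0.59) were above both controls and did not follow the ethanol array.

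INHBA and ASNS, a gene discussed further on, show the motifs among the higher genes. The 250 bases before the RefSeq starts (GRCh38.p14) are at chr7:41703091-41703340 for INHBA and chr7:97872409-97872658 for ASNS (the upstream of its 2 windows), both on the minus strand, with matches in capitals as before.
INHBA: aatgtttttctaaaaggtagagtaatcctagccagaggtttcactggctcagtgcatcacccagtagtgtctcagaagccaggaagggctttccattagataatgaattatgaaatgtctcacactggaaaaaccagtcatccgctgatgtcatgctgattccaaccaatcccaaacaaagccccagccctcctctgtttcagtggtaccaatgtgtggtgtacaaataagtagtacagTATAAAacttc
ASNS: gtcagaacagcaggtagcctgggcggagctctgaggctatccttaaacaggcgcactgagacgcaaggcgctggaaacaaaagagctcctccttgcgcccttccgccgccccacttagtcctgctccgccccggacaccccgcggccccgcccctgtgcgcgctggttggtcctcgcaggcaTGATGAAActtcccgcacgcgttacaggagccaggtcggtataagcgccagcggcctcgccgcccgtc
INHBA holds TATAAA beginning 11 bases before the start, and ASNS holds TGATGNAA beginning 68 bases before it. The other ASNS window had 0 matches to TGATGNAA. That motif was in 11 of 25 genes of the ATF4 list that have a window (44%), against 2.49% of kept genes. The list was chosen as ATF4 response genes and the motif holds an ATF element, so this share does not describe the acetaldehyde array.

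Most genes that make or remove acetaldehyde differed little, but ALDH1A3 and AOX1 were among the 15 highest of all kept genes. ALDH2, the mitochondrial enzyme that clears most acetaldehyde in liver, was dim on every array (86.6 on control 1, 82.2 with ethanol, 88.6 on control 2 and 79.8 with acetaldehyde), as were CYP2E1 and the class I dehydrogenases ADH1A, ADH1B and ADH1C. Several expressed enzymes stayed near control 2: ALDH1B1, a second mitochondrial aldehyde dehydrogenase, read 928 there and 944 with acetaldehyde, ALDH3A2 read 1097 and 1005, ALDH7A1 974 and 898, ALDH9A1 508 and 560, and ADH5, which handles formaldehyde bound to glutathione, 585 and 554. The list's 17 kept genes had a median of -0.05. Of these, 2 were at least 1.5-fold higher (0.742% of all kept genes were) and 0 lower (0.974%). One was ALDH1A3, described above. The other was AOX1, aldehyde oxidase, at 138, 263, 213 and 397 (0.89), which was above both controls and was also higher on the ethanol array. XDH, the related xanthine dehydrogenase, read 740.1, 870, 516 and 748 (0.54), and CAT, catalase, read 537 on control 2 and 429 with acetaldehyde (-0.32). The lowest of the list was ALDH3B2, a lipid-associated aldehyde dehydrogenase, at 459, 75.5, 226 and 156 (-0.54), below both controls.

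The lists for reactive-aldehyde stress and DNA damage held few large differences. Of 30 kept carbonyl reduction and NRF2 genes, 15 were above and 15 below control 2, with a median of 0.03. AKR1B10, an aldo-keto reductase, read 120, 75.4, 2139 and 1078, so it was 1.98-fold lower than control 2 with acetaldehyde but many-fold brighter than on control 1. SLC7A11, the cystine importer, read 1560, 689, 578 and 1003 (0.80), and FTL, ferritin light chain, read 1531, 2301, 3696 and 4940 (0.42). Metallothioneins had a median of 0.03 with 0 of 11 past 1.5-fold.

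Crosslink repair genes had 16 of 24 above control 2 and a median of 0.13, with 0 past 1.5-fold; REV1, a translesion polymerase, read 192 on control 2 and 254 with acetaldehyde (0.41), and the Fanconi ubiquitin enzyme UBE2T 904 and 1152 (0.35), both above both controls. The p53 targets had 17 of 25 above and a median of 0.10, again with 0 past 1.5-fold. PLK3, a stress kinase, had the largest difference among them (390.3 and 569; 0.54), followed by GDF15, a secreted stress cytokine (2194 and 3080; 0.49). Both were above both controls.

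ATF4 amino acid response genes were mostly slightly higher, 22 of 32 above control 2 with a median of 0.14, whereas ethanol against control 1 gave -0.43 for the same list. ASNS, asparagine synthetase, read 717, 411, 383 and 626 (0.71). It and SLC7A11 were the 2 members at least 1.5-fold higher with acetaldehyde, and both lay between the controls. NUPR1, a stress-induced chromatin protein, was lower (1900 and 1389; -0.45). Chaperone genes had a median of 0.10 with 0 past 1.5-fold, HSPB8 (-0.47) and DNAJB1 (-0.46) being the lowest and both below both controls.

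Small nucleolar RNAs guide chemical changes on ribosomal RNA, C/D box members directing methylation and H/ACA members pseudouridine, and small Cajal body RNAs do the same for spliceosomal RNA. Most are processed from introns of other genes. Many were higher with acetaldehyde: of 96 kept, 78 were above control 2, 15 by at least 1.5-fold and 1 lower by that much, with a median of 0.30 against 0.04 for the same RNAs with ethanol. The C/D box class had 40 of 51 above control 2 and a median of 0.39, the H/ACA class 27 of 34 and 0.20, and the Cajal body class 11 of 11 and 0.42. The filter kept any RNA whose brightest array reached 155, so a high acetaldehyde value alone could admit it. SNORD96A, SNORD117 and SNORA38 reached that level only on the acetaldehyde array. Without the filter the C/D, H/ACA and Cajal body medians were smaller, at 0.26, 0.17 and 0.37. Relative to both controls, 57 of the 96 were above, against 30.1% of all kept genes. Against control 1 the C/D, H/ACA and Cajal body medians were 0.15, 0.14 and 0.33. For comparison, 5037 of 9991 protein-coding genes were above control 2, with a median of 0.00, and 20 kept microRNA genes had a median of -0.09.

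SCARNA9 had the largest difference, reading 100.04, 274, 103 and 219 (1.08), with 0.82 on its second probe set. Its near-identical copy SCARNA9L read 138, 314, 105 and 200 (0.93), but only 0.36 on its second probe set. Probes may not tell such copies apart, and the same holds for the SNORD116 and SNORA71 families. SNORD42A read 158, 299, 175 and 333 (0.93) and SNORA14B read 193, 165, 227 and 428 (0.92). In SNORD42A the 2 exposed arrays were alike, while in SNORA14B the acetaldehyde array alone was high. SNORA38B went the other way, at 2347, 1223, 1347 and 822 (-0.71).

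The dimmer 48 of the 96, with mean intensities of 119 to 345, had a median of 0.38 with 9 at least 1.5-fold higher (18.8%), against a median of -0.02 and 0.699% for 4720 other kept genes in that range. The brighter 48 had a median of 0.27 with 6 at least 1.5-fold higher (12.5%), against 0.02 and 0.304% for 5255 others. The small RNAs were thus higher in both brightness ranges.

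Small RNAs were set beside the gene whose RefSeq span contains them, on either strand. For 54 small RNAs exactly 1 spanning gene was kept, 42 different genes in all, and 38 of the 54 were above it. The medians were 0.28 for the small RNAs and 0.08 for the spanning genes, and 6 small RNAs against 0 spanning genes were at least 1.5-fold higher. SNORD42A (0.93) lies within RPL23A (0.03), SNORA14B (0.92) within TOMM20 (-0.09) and SCARNA7 (0.82) within KPNA4 (0.27). The reverse also occurred: SNORA21 was at 0.17 and its spanning gene RPL23 at 0.55, and SNORA38B at -0.71 within NOL11 at 0.25. Array probe sets of a host gene read its exons, so these values do not give the level of the intron from which a small RNA is cut.

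**Figure D4:**
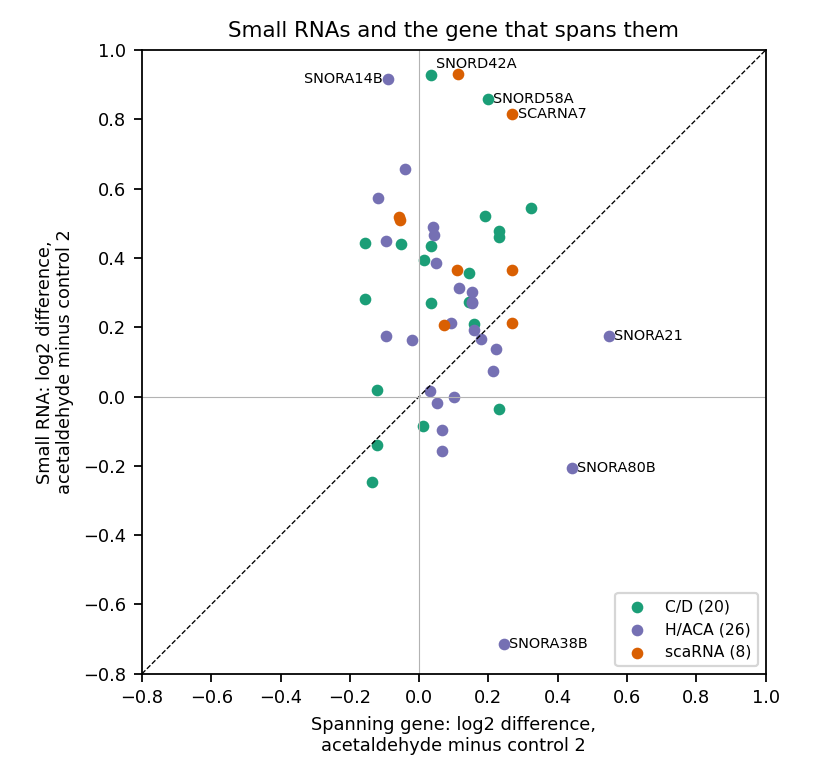
Difference between acetaldehyde and control 2 (log2) of 54 small RNAs (vertical axis) against that of the 1 kept gene that spans each (horizontal axis), coloured by class; the dashed line marks equal differences. Of the 54 points 38 lie above the line, among them SNORD42A and SNORA14B, while SNORA38B and SNORA21 lie below it.

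Growth and housekeeping genes differed by little but not evenly. Of 33 kept mitosis and spindle genes, 28 were above control 2 and 26 above both controls, with a median of 0.14 and 0 past 1.5-fold. The list's median on control 2 was already 0.77 above control 1. HMMR, a spindle protein, was highest at 232 on control 2 and 327 with acetaldehyde (0.50), and TTK, a spindle checkpoint kinase, read 357 and 460 (0.36). Replication and G1/S genes had a median of 0.09, with CCNE2, cyclin E2, at 241 and 339 (0.50), both below its 744 on control 1. Replication-dependent histones had a median of 0.01 over 40 genes, cytosolic ribosomal proteins 0.02 over 63, respiratory chain genes 0.02 over 76 and mitochondrial ribosomal proteins 0.03 over 71, with 0 members of these 4 lists past 1.5-fold in either direction. After quantile normalization of all 4 arrays the ribosomal protein and respiratory chain medians were -0.0111 and -0.0220.

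Lipid synthesis leaned lower. Of 25 kept cholesterol genes 19 were below control 2 and 16 below both controls, with a median of -0.13. INSIG1, the sterol-sensing brake on cholesterol synthesis, read 397, 501, 450 and 305 (-0.56), and MSMO1, a sterol oxidase, 3562, 3183, 1736 and 1335 (-0.38). Fatty acid genes had 14 of 20 below and a median of -0.11, with FASN, fatty acid synthase, at 2238 on control 2 and 1627 with acetaldehyde (-0.46), both above its 1155 on control 1, and SCD, the stearoyl desaturase, at 3024 and 2290 (-0.40). Among immediate early genes, FOS (787, 1052, 2377 and 1508; -0.66) and JUNB (-0.59) were lower than control 2 but above control 1, and the list's median was -0.08.

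The ethanol and acetaldehyde pairs share no array, and the doses differed (25 and 2.5 mM), so the responses are set side by side. Among the 101 genes below control 2 by 1.5-fold or more, ethanol also gave a value lower by that much in 59 (4.22% of all kept genes did), 40 were within 1.5-fold and 2 were higher. The 59 are 58.4% of the acetaldehyde list and 13.5% of the ethanol list. Of the 77 higher genes, 28 were also higher with ethanol (5.44% of all kept genes were), 44 were within 1.5-fold and 5 were lower, and the 28 are 36.4% of the acetaldehyde list and 4.96% of the ethanol list. Among the 22 lowest genes, ethanol gave a value lower by 1.5-fold or more in 18 and within 1.5-fold in the other 4. KRT10 differed by -4.20 with ethanol and -2.44 with acetaldehyde, SPRR1B by -4.40 and -1.08, INHBA by 1.08 and 1.02, and ANGPTL4 by 2.35 and 0.95. Differences with ethanol were thus larger for KRT10, SPRR1B and ANGPTL4 and nearly equal for INHBA.

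**Figure D5:**
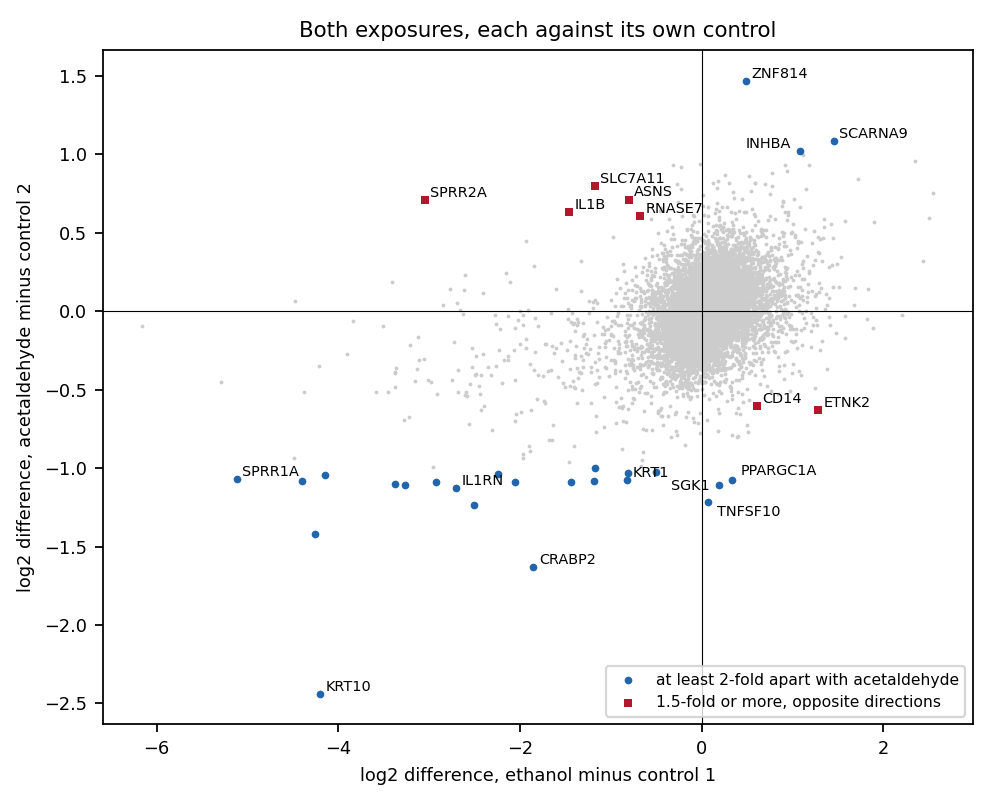
Difference between acetaldehyde and control 2 (vertical axis, log2) against that between ethanol and control 1 (horizontal axis, log2), 1 point for each of 10373 kept genes. Blue circles are the 22 lower and 3 higher genes at least 2-fold apart with acetaldehyde, of which 18 lower genes were also past 1.5-fold on the lower side with ethanol; red squares are 7 genes at least 1.5-fold apart in opposite directions.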

How the data were processed

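For each array the authors deposited linear intensity values, 1 for every probe set. RMA is named in the submitters' processing notes; its software and version, and whether the pairs were normalized together, are not stated in them. Log2 was taken without an offset. Of 33297 probe sets, the platform annotation gave 1 gene symbol for 19460, several for 1754 and none for 12083. Genes were named from probe sets with 1 symbol, and 10364 kept genes matched RefSeq identifiers. For each of 18417 genes the probe set with the highest mean was used, and genes whose brightest of the 4 arrays reached log2 7.28, the median of all gene-naming values, were kept, which left 10373. Deposited values had 0 columns of other samples.

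With 1 array a side no p-value was computed, and genes were counted by size. The genes described and the 49 lists were chosen with earlier results of these data known. Named genes were the 15 lowest and 15 highest, the 3 largest differences in each list, and fixed aldehyde and marker genes. ETNK2, RNASE7, SPRR2A, NOL11, TOMM20, RPL23A, other enzymes of the aldehyde list, the other markers and the small RNAs set beside spanning genes were named after their values were seen. Alternatives were the filter, an offset of 16, the fold threshold, quantile normalization of all 4 arrays, control 1 as the control, all probe sets, and the mean over probe sets. The counting code was run on simulated data whose added differences were all larger than 2-fold, so differences near the thresholds were not covered. Python 3.11.15, numpy 2.4.6, pandas 2.3.3 and matplotlib 3.10.9 were used.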

Additional observations from a re-analysis of the deposited data

Results flagged for a closer look

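There were 7 genes that were at least 1.5-fold apart from their control in both pairs but in opposite directions; the value is the acetaldehyde difference minus the ethanol difference on the log2 scale, and with 1 array a group this difference was not tested. Of these, 5 were higher with acetaldehyde and lower with ethanol. SPRR2A, an envelope precursor, differed by 3.75 (0.70 with acetaldehyde and -3.05 with ethanol), but its intensity was 47.5 on control 2 and 77.3 with acetaldehyde, both dim. IL1B, the interleukin-1 agonist, differed by 2.09 (0.63 and -1.46). SLC7A11, the cystine importer, differed by 1.97 (0.80 and -1.18), and ASNS, asparagine synthetase, by 1.51 (0.71 and -0.80). RNASE7, the antimicrobial ribonuclease, differed by 1.28 (0.60 and -0.68). In each of these 5 genes control 1 was brighter than control 2 and the acetaldehyde value lay between the controls.

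ETNK2, an ethanolamine kinase of phospholipid synthesis, differed by -1.91 (-0.63 with acetaldehyde and 1.28 with ethanol), at 304 on control 1, 737 with ethanol, 1024 on control 2 and 662 with acetaldehyde. CD14, the lipopolysaccharide coreceptor and a monocyte marker, differed by -1.21 (-0.61 and 0.60), at 189, 287, 279 and 183. In both genes control 2 was brighter than control 1. The difference between the controls thus ran opposite to the sign of the acetaldehyde difference in all 7 genes, and control 2 enters both of those differences.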

How the results depend on the processing

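No paired analysis was possible because each group has 1 array. Of the main counts (22 genes at least 2-fold lower and 3 higher), the mean over probe sets left both within 1.5 times. Without the filter 15 genes were higher, and requiring both arrays of the pair above the filter gave 14 lower and 1 higher; fewer genes entered by construction. With 16 added 1 gene was higher, with quantile normalization of all 4 arrays 6, and over all probe sets that pass the filter, named or not, 94; the 1.5-fold threshold gave 101 and 77. All 22 lower genes kept their call under quantile normalization, 16 with 16 added. Control 1 as the control gave 519 lower and 479 higher genes and 27 lists with medians at least 0.2 from 0, against 10; 15 of the 22 lower genes and 1 of the 3 higher ones kept their call. Against control 1 the sign turned for 41 of 150 named genes and 22 of 49 list medians. Among those at least 1.5-fold apart, or lists at least 0.2 from 0, the glucocorticoid list's median was 0.50, and PPARGC1A was at 1.61, AKR1B10 3.17, SGPP2 1.00, FOS 0.94, CXCL14 0.88, S100A7 0.81, KRT1 0.22, JUNB 0.18, IL1B -1.23, ALDH1A3 -0.71, SLC7A11 -0.64, NT5E -0.45, EFNB2 -0.39, THBS1 -0.21, ZNF814 -0.20, ASNS -0.20 and ZNF655 -0.055. The cause was not tested. Of the named genes, 110 others moved by over 0.15 against control 1, and under the offset, the mean over probe sets and quantile normalization 2, 3 and 1 did. Of 49 list medians, 31 others moved by over 0.15 against control 1, 3 without the filter (keratins to -0.066, kallikreins to -0.17, antimicrobial genes to -0.27) and 0 under the offset, the mean over probe sets or quantile normalization. Quantile normalization turned the sign of 6 list medians, the missing filter that of 3 and the mean over probe sets that of 2. Signal over background limits the dim genes: the SD of the differences was 0.28 among the 1946 dimmest probe sets with 1 symbol and 0.19 among the 1946 brightest.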

Other observations

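The 12083 probe sets without a gene symbol stood apart from the genes. Of these, 487 (4.03%) were at least 2-fold higher with acetaldehyde than on control 2 and 94 (0.778%) at least 2-fold lower, against 15 higher (0.0771%) and 33 lower (0.170%) of 19460 probe sets with 1 symbol before any filter. They were dim: the median intensity of the 487 was 18.2 on control 2 and 52.7 with acetaldehyde, both below the filter intensity of 155. With ethanol against control 1, 511 of them were at least 2-fold higher and 72 lower, and 143 were higher with both exposures. What these probe sets read is not given in the annotation used here, and they entered no count of genes.

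Among transporters and zinc finger genes, single members differed while the lists did not. The 196 kept solute carriers had a median of -0.03 and the 212 genes named ZNF a median of 0.03. SLC9A9, an endosomal sodium-proton exchanger, read 121 on control 1, 119 with ethanol, 183 on control 2 and 107 with acetaldehyde (-0.77). SLC20A1, a phosphate importer, read 2271, 4790, 1795 and 2843 (0.66), and was above both controls on both exposed arrays. Across the 10373 kept genes the ethanol and acetaldehyde differences had a Pearson r of 0.39, a description across genes, which are not independent replicates.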
